A study of Mus musculus with 24 samples.

Results

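The genes described here are listed as mast cell and eosinophil genes, and comprise 10 of the 39056 genes counted in the table. They were chosen by name, as mast cell products and receptors (Mcpt1, Mcpt2, Cpa3, Fcer1a, Kit), eosinophil products and receptors (Epx, Prg2, Ccr3, Il5ra) and the eosinophil attractant Ccl11. RNA came from the ileum of male and female mice (C57BL/6 in the labels, C57BL/6 J in the methods) aged 9.0 to 10.3 weeks, sorted into CD45+ (blood-derived) and CD45- cells, with 3 libraries for each of 4 genotypes in each fraction, 24 in all. Hoil1+/+ and Hoil1-/- mice were each studied with intact floxed Il4ra (Il4ra f/f) and with Il4ra deleted in the epithelium (Il4ra ΔIEC), and the 4 groups are written Hoil1+/+ f/f, Hoil1+/+ ΔIEC, Hoil1-/- f/f and Hoil1-/- ΔIEC. All mice thus carried floxed Il4ra alleles, and in ΔIEC mice Cre under the villin promoter deletes Il4ra in intestinal epithelial cells and not in blood-derived cells. Hoil1 (Rbck1) encodes a subunit of the linear ubiquitin chain assembly complex, and the Hoil1-/- mouse is a model of partial deficiency. Before the sort, lamina propria cells were pooled with a part of the epithelial cells of the same preparation, and Peyer's patches had been removed.

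Mast cells of the intestinal mucosa store chymase-type proteases in their granules together with carboxypeptidase A3, and release them when IgE bound to the high-affinity receptor FcεRI is crosslinked. They depend on KIT, the receptor for stem cell factor, and their numbers in the mucosa rise in type 2 immune responses such as those to helminths. Eosinophils live in the lamina propria of the healthy small intestine, and their granule proteins, among them major basic protein and eosinophil peroxidase, are made mainly while they mature in bone marrow. IL-5 sustains them through its receptor, of which Il5ra encodes the specific chain, and eotaxins such as CCL11 and CCL24 draw them into tissue through CCR3.

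The DNA just before the start of the mast cell and eosinophil genes is shown because Mcpt1 and Cpa3 went together across libraries while Ccr3 and Il5ra did not, as described further on. RefSeq promoter windows (GRCm38.p6) were given for 7 of the 10 genes; Mcpt2, Prg2 and Ccl11 had none. The 250 bases before the annotated start are printed 5′ to 3′ on the gene's strand, with capitals marking GATAA or its reverse complement TTATC, letters that GATA factors can bind; both strands were searched.
Mcpt1, chr14:56017714-56017963, plus strand: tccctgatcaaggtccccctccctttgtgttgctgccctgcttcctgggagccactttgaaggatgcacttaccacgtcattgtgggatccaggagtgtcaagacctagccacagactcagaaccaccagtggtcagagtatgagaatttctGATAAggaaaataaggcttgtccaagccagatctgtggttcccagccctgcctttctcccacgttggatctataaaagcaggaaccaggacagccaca
Cpa3, chr3:20242182-20242431, minus strand: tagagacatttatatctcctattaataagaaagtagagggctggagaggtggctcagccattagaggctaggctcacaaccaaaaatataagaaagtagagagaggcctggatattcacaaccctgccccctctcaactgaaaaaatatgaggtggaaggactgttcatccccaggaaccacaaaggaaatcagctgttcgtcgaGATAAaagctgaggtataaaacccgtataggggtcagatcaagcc
Ccr3, chr9:124021721-124021970, plus strand: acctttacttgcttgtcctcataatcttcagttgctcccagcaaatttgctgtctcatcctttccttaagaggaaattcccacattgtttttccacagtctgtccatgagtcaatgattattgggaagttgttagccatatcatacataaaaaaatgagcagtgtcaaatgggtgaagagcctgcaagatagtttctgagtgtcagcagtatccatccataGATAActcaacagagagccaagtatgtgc
Il5ra, chr6:106749038-106749287, minus strand: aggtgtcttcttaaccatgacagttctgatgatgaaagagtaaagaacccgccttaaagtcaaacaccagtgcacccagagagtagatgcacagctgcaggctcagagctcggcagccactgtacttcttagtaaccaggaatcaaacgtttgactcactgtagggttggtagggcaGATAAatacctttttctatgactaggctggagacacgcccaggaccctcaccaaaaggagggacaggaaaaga
The letters began 98 bases before the start in Mcpt1, 45 in Cpa3, 29 in Ccr3 and 73 in Il5ra. Fcer1a also held them, as TTATC, 92 bases before its start, and the windows of Kit and Epx did not hold them. That made 5 of 7 genes, against 6221 of 27025 promoter windows (23%) of the same length. CACATG, the E-box letters, stood in the Fcer1a window only, against 12.2% of all windows, and CACGTG, a related E-box, stood in none of the 7, against 6.05%. These are matches of letters and not shown to be binding sites.

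The libraries held 14938629 to 76807504 counts on genes in CD45+ cells and 6028275 to 68345191 in CD45- cells, so that 3 counts, taken as the smallest level a library can show, correspond to 0.0391 to 0.201 CPM and 0.0439 to 0.498 CPM. CPM are a gene's counts scaled to the same total in every library. The study left out 3 Hoil1-/- libraries after principal component analysis, namely CD45+ Hoil1-/- f/f replicate 1, CD45+ Hoil1-/- ΔIEC replicate 3 and CD45- Hoil1-/- f/f replicate 3, and tests were run on the other 21. Levels are given for all 24. The labels do not say that each library came from its own mouse, so p-values measure the spread between libraries. Rbck1 reached 54.0 to 169 CPM in Hoil1+/+ and 3.67 to 15.5 CPM in Hoil1-/- CD45+ libraries, so that no Hoil1 label was contradicted. Counts over the whole of Il4ra do not check the epithelial deletion, and they overlapped in CD45- cells, with 61.2 to 187 CPM in f/f and 42.0 to 158 CPM in ΔIEC libraries. In CD45+ cells, in which Il4ra is not targeted, its counts were 60.9 to 162 CPM in f/f and 191 to 293 CPM in 5 of 6 ΔIEC libraries, with 73.9 CPM in the left-out one. Ptprc, which encodes CD45, reached 180 to 845 CPM in CD45+ cells and at most 16.3 CPM in CD45- cells. Immunoglobulin genes took 12.1% to 44.0% of the counts in CD45+ libraries, so that the share left for other genes differed between libraries. In sorted bulk RNA, fewer cells of a type and less RNA per cell cannot be told apart.

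Per kilobase of exon, the mast cell chymase genes were the most abundant members in CD45+ cells. Mcpt1, a chymase of mucosal mast cells also called mMCP-1, had a median of 263 CPM per kilobase over the 12 CD45+ libraries, and Mcpt2, its relative in the same gene cluster, had 123. Mcpt1 stood above Mcpt2 and Mcpt2 above all the other members in each of the 12 libraries. Prg2, the eosinophil granule major basic protein gene, followed with a median of 32.8 CPM per kilobase. Cpa3 (7.56) and Kit (6.31) had close medians, and Cpa3 was the higher of them in 7 of 12 libraries. Ccr3 (3.22) and Fcer1a (1.68), the ligand-binding chain of FcεRI, were also not ordered, with Ccr3 higher in 7 of 12. Il5ra (0.733) and Ccl11 (0.587) were the lowest with counts, Il5ra being higher in 5 of 12, and Epx, which encodes eosinophil peroxidase, had no count in any of the 24 libraries.

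The sort separated Mcpt1, Mcpt2, Cpa3, Fcer1a, Ccr3 and Il5ra almost completely. Cpa3, Fcer1a, Ccr3 and Il5ra had no count in any CD45- library. Taking 3 counts over the summed CD45- libraries as the floor (0.0129 CPM), their mean levels in CD45+ cells were at least 919-fold higher for Cpa3, at least 856-fold for Ccr3, at least 228-fold for Fcer1a and at least 190-fold for Il5ra. Mcpt1 had counts in 1 CD45- library (42 counts, 1.39 CPM) and Mcpt2 in another (7 counts, 0.399 CPM). Prg2 had counts in 6 of 12 CD45- libraries and reached at most 2.59 CPM. Kit was present in all 24 libraries, with overlapping levels of 20.7 to 104.7 CPM in CD45+ and 10.1 to 72.3 CPM in CD45- cells. Ccl11 was the 1 member that was higher in CD45- cells, and it had counts in 9 of 12 CD45+ libraries.

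In edgeR's quasi-likelihood test of CD45+ against CD45- cells, all 9 members with counts were called at an adjusted p below 0.05, 8 of them higher in CD45+ cells; of all 18778 genes tested, 49.6% were called. Kit was higher in CD45+ cells by 1.46 ± 0.27 on the log2 scale (SE; adjusted p = 0.000299). Prg2 was higher by 6.34 ± 0.84 (adjusted p = 1.05e-05). Ccl11 differed by -3.55 ± 0.86 (adjusted p = 0.00248), that is, it was higher in CD45- cells. Leaving out CD45+ Hoil1-/- f/f replicate 2 ended the call of Fcer1a, which left 8 members called. The labels do not tie a CD45+ library to a CD45- library of the same mouse.

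**Figure D1:**
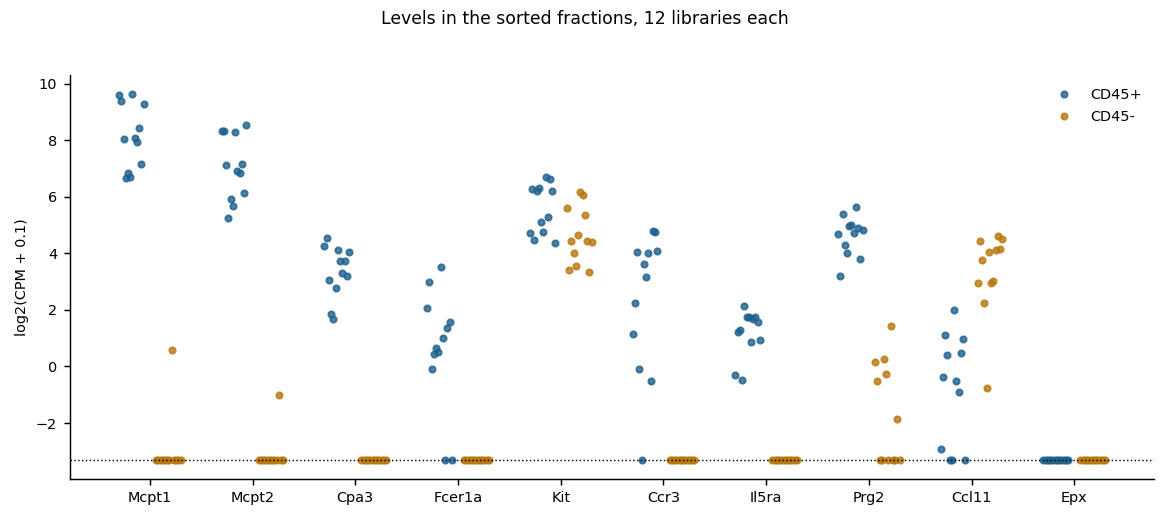
Level of each gene on the log2(CPM + 0.1) scale in the 12 CD45+ (blue) and 12 CD45- (ochre) libraries, 1 point per library, with the dotted line at 0 counts. Mcpt1, Mcpt2, Cpa3, Fcer1a, Ccr3 and Il5ra lie on the dotted line in all or all but 1 of the CD45- libraries, Kit is present in both fractions, Ccl11 is higher in CD45- cells, and Epx is at 0 in all 24.

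The mast cell proteases were lowest in Hoil1+/+ mice that lacked Il4ra in the epithelium. Mcpt1 (ENSMUSG00000022227.4, chr14:56017971-56020384, plus strand, GRCm38) had 779, 670 and 265 CPM in the 3 CD45+ libraries of Hoil1+/+ f/f mice and 100.1, 115.5 and 103 CPM in those of Hoil1+/+ ΔIEC mice. In Hoil1-/- f/f mice it had 798, 268 and 247 CPM, and in Hoil1-/- ΔIEC mice 344, 142 and 626 CPM, with the first and the last of these 6 values from libraries that the study left out. Within Hoil1+/+ mice the f/f and ΔIEC libraries did not overlap, whereas within Hoil1-/- mice they did. The 3 ΔIEC libraries of Hoil1+/+ mice had a mean of 106 ± 8.18 CPM (SD, n = 3).

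Mcpt2 (ENSMUSG00000022226.5, chr14:56042041-56044642, plus strand) showed a like pattern. It had 318, 319 and 140.5 CPM in Hoil1+/+ f/f and 37.5, 59.9 and 51.3 CPM in Hoil1+/+ ΔIEC libraries. The values were 312, 120.3 and 115 CPM in Hoil1-/- f/f and 144, 70.8 and 369.9 CPM in Hoil1-/- ΔIEC libraries. Again only the Hoil1+/+ groups were separated by the Il4ra genotype. Mcpt1 and Mcpt2 are paralogs, with 81.0% of aligned bases identical between their transcripts, but no stretch of 50 bases was shared. How reads that fit both were counted is not given in the sources used here.

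Cpa3 (ENSMUSG00000001865.2, chr3:20215620-20242181, minus strand), the gene of the granule carboxypeptidase, lies on another chromosome and followed the chymases. It had 18.8, 23.2 and 8.32 CPM in Hoil1+/+ f/f and 3.53, 3.13 and 6.73 CPM in Hoil1+/+ ΔIEC libraries. In Hoil1-/- f/f mice it had 17.1, 13.3 and 9.68 CPM, and in Hoil1-/- ΔIEC mice 13.2, 9.04 and 16.6 CPM. All 6 Hoil1-/- libraries thus lay above the 3 libraries of Hoil1+/+ ΔIEC mice, as they also did for Mcpt1 and Mcpt2. The share of all genes with that order was not counted.

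Between libraries Mcpt1 varied 7.97-fold, whereas the ratio of Mcpt1 to Mcpt2 varied 1.58-fold, from 1.69 to 2.67. The ratio of Mcpt1 to Cpa3 varied 3.04-fold. Mcpt9, another chymase gene of the cluster, varied 20.3-fold and its ratio to Mcpt1 11.2-fold, with 25.8 and 17 CPM in Hoil1+/+ f/f replicates 1 and 2 and 24.8 CPM in Hoil1-/- ΔIEC replicate 3 against at most 4.64 CPM in the other 9 libraries.

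**Figure D2:**
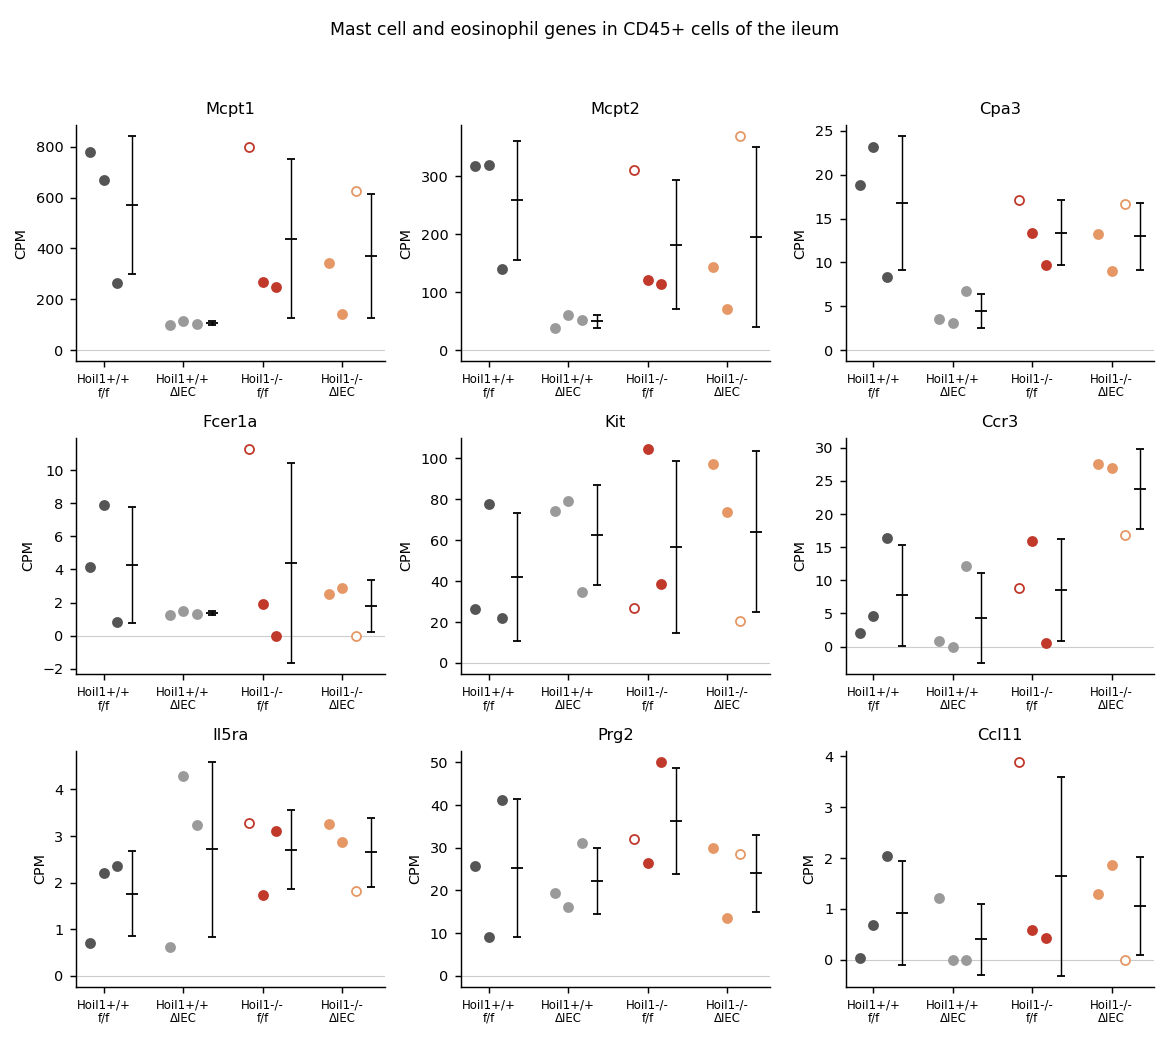
CPM of 9 genes in CD45+ libraries, 1 point per library, open where the study left the library out, with the mean and SD of the 3 libraries of a genotype beside them. Mcpt1, Mcpt2 and Cpa3 were lower in all 3 Hoil1+/+ ΔIEC libraries than in any Hoil1+/+ f/f library, and Ccr3 was higher in all 3 Hoil1-/- ΔIEC libraries than in any library of the other ΔIEC group.

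The comparison of Il4ra genotypes asks whether these genes depend on IL-4 receptor signalling in the epithelium. Averaged over the Hoil1 genotypes, the fitted difference between ΔIEC and f/f mice was -1.60 ± 0.33 (log2, SE) for Mcpt1, -1.61 ± 0.29 for Mcpt2 and -1.28 ± 0.33 for Cpa3. None passed edgeR's quasi-likelihood test after adjustment over the 17029 genes tested (adjusted p = 0.185, 0.176 and 0.285). In that test 0 of the 9 members tested were called, and over all genes 1 gene, Impact, was called, 0.00587%. At an unadjusted p below 0.05, 3 of 9 members were lower, against 5.36% of all genes lower by that rule. Both edgeR's likelihood ratio test and DESeq2 called all 3 proteases lower, with adjusted p of 0.00657, 0.000873 and 0.0441 in the former and 0.000161, 1.46e-05 and 0.0285 in the latter; these tools called 1.18% and 2.00% of all genes. With all 12 libraries the quasi-likelihood estimates were -1.49, -1.29 and -1.14, each with an adjusted p of 0.864. Over all alternatives run, the adjusted p ranged from 0.000161 to 0.864 for Mcpt1, from 1.46e-05 to 0.864 for Mcpt2 and from 0.0285 to 0.864 for Cpa3, always with a lower estimate in ΔIEC mice.

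Within Hoil1+/+ mice alone, a contrast added after the data were seen, the difference was -2.83 ± 0.44 for Mcpt1, -2.78 ± 0.38 for Mcpt2 and -2.24 ± 0.43 for Cpa3, with adjusted p of 0.0859, 0.0559 and 0.192 in the quasi-likelihood test, which called 1 gene, Scd1, 0.00587% of all. In Hoil1-/- mice the same differences were -0.38 ± 0.50, -0.43 ± 0.44 and -0.32 ± 0.50. With all 12 libraries those in Hoil1+/+ mice were -2.88, -2.83 and -2.28, each with an adjusted p of 0.98 in the quasi-likelihood test. Those in Hoil1-/- mice were then -0.11, 0.25 and -0.01, so that the sign turned for Mcpt2. In the fit of 10 libraries these 3 of the 9 members had a lower estimate and an unadjusted p below 0.05 in Hoil1+/+ mice, as did 4.47% of all genes. The same 3 were lower in all ΔIEC than in all f/f libraries of Hoil1+/+ mice, and 1.70% of all genes met that rule, with 16.2% separated in either direction. The interaction, which tests whether the Il4ra effect differed between the Hoil1 genotypes, was 2.45 ± 0.66 for Mcpt1, 2.35 ± 0.57 for Mcpt2 and 1.92 ± 0.65 for Cpa3. Its adjusted p were 0.595, 0.591 and 0.694 in the quasi-likelihood test, which called 0 genes, with 1193 genes at an unadjusted p below 0.05; of these the higher ones were 3.59% of all genes and included the 3 proteases. DESeq2 called the interaction for Mcpt1 (adjusted p = 0.0188) and Mcpt2 (0.0106), among 0.940% of all genes, and the likelihood ratio test called it for none of the 3 (0.126, 0.0718 and 0.304), among 0.399% of all genes; over all alternatives run the adjusted p ranged up to 1.0 for each.

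Markers of B-lineage cells differed between the same groups. The summed level of 5 plasma cell genes (Jchain, Mzb1, Xbp1, Sdc1 and Tnfrsf17) ranged from 20530 to 31990 CPM in Hoil1+/+ f/f and from 13420 to 16020 CPM in Hoil1+/+ ΔIEC libraries, and all 5 genes had a lower estimate and an unadjusted p below 0.05 for the averaged Il4ra effect. Their median difference was -1.40 in Hoil1+/+ and -1.24 in Hoil1-/- mice, with an interaction of 0.15. In Hoil1-/- mice the summed level was 14460, 24030 and 23540 CPM in f/f and 15830, 9560 and 29270 CPM in ΔIEC libraries, so that the groups overlapped. The first and the last of these values came from libraries that the study left out and that were not in the fit. The summed level of 4 B cell genes (Cd79a, Cd79b, Ms4a1 and Pax5) went the other way, with 221 to 381 CPM in Hoil1+/+ f/f and 372 to 1055 CPM in Hoil1+/+ ΔIEC libraries, and its Pearson correlation with Mcpt1 over the 12 libraries was -0.81 (Spearman -0.74), as a description. In Hoil1-/- mice the sum of the B cell genes overlapped, with 179 to 637 CPM in f/f and 313 to 554 CPM in ΔIEC libraries. The part of either list in the protease result was not tested. With immunoglobulin genes removed from the table, the proteases kept the direction of their Il4ra effect and remained short of the threshold.

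**Figure D3:**
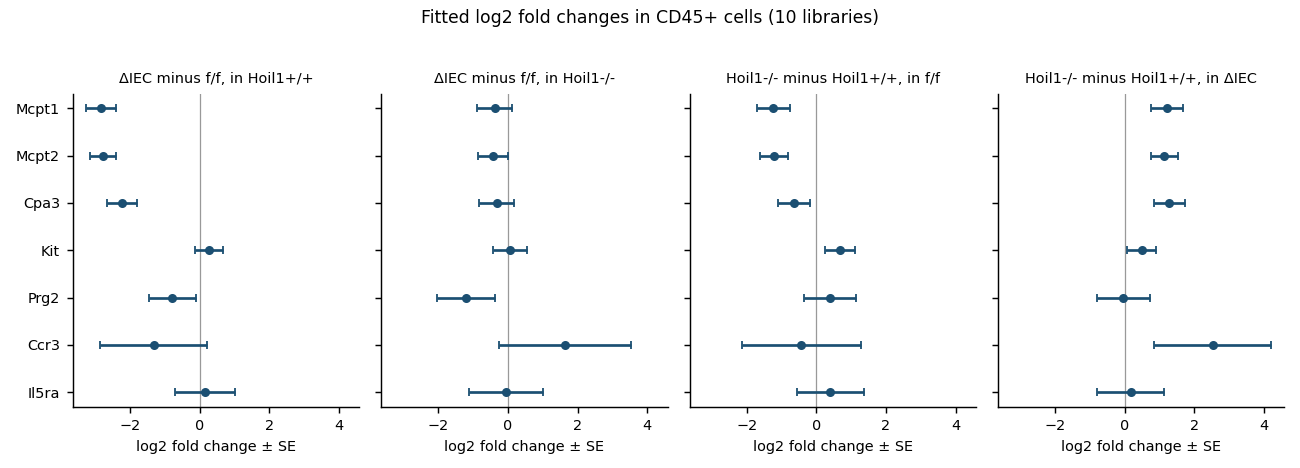
Fitted log2 fold changes with their SE for 7 genes in the 10 CD45+ libraries tested, for the Il4ra effect within each Hoil1 genotype and the Hoil1 effect within each Il4ra genotype. Mcpt1, Mcpt2 and Cpa3 lie at -2.83 to -2.24 for ΔIEC against f/f in Hoil1+/+ mice and at -0.43 to -0.32 in Hoil1-/- mice, and Ccr3 has wide SE (1.69 for the Hoil1 effect in ΔIEC mice).

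The comparison of Hoil1 genotypes asks whether HOIL1 deficiency alters these genes. Averaged over Il4ra genotypes, no member was called in CD45+ cells, and 1 gene in all, Rbck1, was called by the quasi-likelihood test, 0.00587% of those tested. Of the 9 members tested, 0 had an unadjusted p below 0.05, against 5.85% of all genes. The median difference of the 9 members was 0.29 and that of all genes -0.05. For Mcpt1 the averaged difference was -0.02 ± 0.32, for Mcpt2 -0.05 ± 0.28 and for Cpa3 0.32 ± 0.32, and for Mcpt1 and Mcpt2 the sign turned with all libraries, to 0.79 and 0.84. The estimates within the Il4ra genotypes had opposite signs for Mcpt1, Mcpt2 and Cpa3. In f/f mice the differences between Hoil1-/- and Hoil1+/+ were -1.24 ± 0.48 for Mcpt1, -1.22 ± 0.41 for Mcpt2 and -0.63 ± 0.46 for Cpa3, and in ΔIEC mice they were 1.21 ± 0.45, 1.13 ± 0.39 and 1.28 ± 0.45. None passed adjustment (adjusted p = 0.775 to 0.853), and no gene was called by the quasi-likelihood test in the CD45+ cells of either Il4ra genotype, with 898 genes in f/f and 1035 in ΔIEC mice at an unadjusted p below 0.05. In f/f mice 2 of 9 members (Mcpt1 and Mcpt2) were lower at an unadjusted p below 0.05, against 2.37% of all genes, and in ΔIEC mice 3 of 9 (with Cpa3) were higher, against 3.04%. With all 12 libraries the f/f differences were -0.59 (unadjusted p = 0.365 in edgeR's quasi-likelihood test) for Mcpt1 and -0.70 (unadjusted p = 0.295) for Mcpt2, and those in ΔIEC mice were 2.18 and 2.38. Without Hoil1-/- ΔIEC replicate 1 the ΔIEC differences fell to 0.33 for Mcpt1 and 0.43 for Mcpt2. DESeq2 called 0.546% and 0.934% of all genes in f/f and ΔIEC mice and the likelihood ratio test 0.388% and 0.299%, with no member among them. In ΔIEC mice 4 of 9 members (Mcpt1, Mcpt2, Cpa3 and Ccr3) were higher in all 3 Hoil1-/- than in all 3 Hoil1+/+ libraries, and 2.82% of all genes met that rule. In f/f mice no member was separated by Hoil1 genotype, against 4.11% of all genes in either direction.

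An exact two-sided permutation test of log2(CPM + 0.1) between Hoil1-/- and Hoil1+/+ libraries, with 4 against 6 CD45+ and 5 against 6 CD45- libraries, gave no p below 0.05 for any member. The smallest was that of Kit in CD45+ cells (difference 0.68 on the log2 scale, exact p = 0.181), and in CD45- cells that of Ccl11 (1.06, exact p = 0.268). The smallest p such tests can give is 0.00952 in CD45+ and 0.00433 in CD45- cells.

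Fcer1a and Kit followed the proteases less closely than the proteases followed each other. Fcer1a (ENSMUSG00000005339.10, chr1:173221284-173227214, minus strand) had 4.13, 7.88 and 0.848 CPM in Hoil1+/+ f/f, 1.25, 1.47 and 1.33 CPM in Hoil1+/+ ΔIEC, 11.3, 1.89 and 0 CPM in Hoil1-/- f/f and 2.49, 2.88 and 0 CPM in Hoil1-/- ΔIEC libraries. The library without counts in the last group had 626 CPM of Mcpt1 and 4.01 CPM of Ms4a2, the gene of the β chain of FcεRI. Across the 12 CD45+ libraries the correlation of Fcer1a with Mcpt1 was 0.20 (Spearman 0.54). With Mcpt2 it was 0.11 (0.30) and with Cpa3 0.21 (0.53), all as descriptions. The averaged Hoil1 difference was -0.71 ± 1.01 (adjusted p = 0.955), and it turned to 0.15 with all libraries. It was -4.87 for Fcer1a without Hoil1-/- f/f replicate 2, and -0.21 without replicate 3 of that group.

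Kit (ENSMUSG00000005672.12, chr5:75574916-75656722, plus strand) had 26.2, 77.9 and 21.9 CPM in Hoil1+/+ f/f and 74.3, 79.1 and 34.6 CPM in Hoil1+/+ ΔIEC CD45+ libraries. The values were 26.9, 104.7 and 38.5 CPM in Hoil1-/- f/f and 97.5, 74.0 and 20.7 CPM in Hoil1-/- ΔIEC libraries. All 4 groups overlapped, and the averaged Hoil1 difference of 0.58 ± 0.30 did not pass (adjusted p = 0.783). The libraries with the most Mcpt1 (798, 779, 670 and 626 CPM) had 26.9, 26.2, 77.9 and 20.7 CPM of Kit, 3 of them below and 1 above its median of 56.2 CPM. Across the 12 libraries the correlation of Kit with the summed ILC2 genes (Gata3, Il17rb, Nmur1, Klrg1, Areg, Il1rl1 and Rora) was 0.88 (Spearman 0.90), that with the summed T cell genes 0.80 (0.81), that with the summed endothelial genes 0.64 (0.64) and that with Mcpt1 -0.40 (-0.26), given as descriptions, since all genes of a library share its total. Kit also split by age, with 20.7 to 34.6 CPM in the libraries aged 9.0 or 9.1 weeks and 38.5 to 104.7 CPM in those aged 9.4 to 9.9 weeks. The summed T cell genes split the same way, with 105 to 358 CPM against 519 to 2137 CPM. For the summed ILC2 genes the age ranges overlapped, at 33.9 to 134 CPM and 121 to 742 CPM. The part of age in these correlations was not tested.

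The eosinophil genes differed from each other in pattern. Epx (ENSMUSG00000052234.2, chr11:87864000-87875536, minus strand) was at 0 in every library, which allows up to 0.201 CPM in the shallowest CD45+ library. Of the 9 further eosinophil genes listed, Ear6 had no count in CD45+ cells, Ear1 had counts in 1 CD45+ library, and Prg3, a paralog of Prg2, stayed at or below 1.44 CPM, whereas Alox15, the lipoxygenase of resident eosinophils and macrophages, ranged from 1.99 to 110 CPM.

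Ccr3 (ENSMUSG00000035448.9, chr9:124021972-124031689, plus strand) had 2.12, 4.69 and 16.3 CPM in Hoil1+/+ f/f and 0.831, 0 and 12.2 CPM in Hoil1+/+ ΔIEC libraries. It had 8.86, 15.99 and 0.599 CPM in Hoil1-/- f/f and 27.6, 27.0 and 16.9 CPM in Hoil1-/- ΔIEC libraries. The Hoil1-/- ΔIEC group held the 3 highest levels, and within each of the other 3 groups the levels were far apart. The averaged Hoil1 difference was 1.04 ± 1.18 (adjusted p = 0.921), and without Hoil1-/- f/f replicate 2 it was -0.61. In ΔIEC mice the difference was 2.52 ± 1.69 (adjusted p = 0.795). Within Hoil1-/- mice the ΔIEC libraries lay above the f/f libraries, as for 2.57% of all genes, and 1 of the 3 libraries on each side had been left out.

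Il5ra (ENSMUSG00000005364.11, chr6:106710357-106749037, minus strand) was low in all groups. It had 0.711, 2.20 and 2.36 CPM in Hoil1+/+ f/f, 0.623, 4.28 and 3.23 CPM in Hoil1+/+ ΔIEC, 3.27, 1.74 and 3.12 CPM in Hoil1-/- f/f and 3.26, 2.88 and 1.82 CPM in Hoil1-/- ΔIEC libraries. The groups overlapped, with an averaged Hoil1 difference of 0.29 ± 0.69. The library without counts of Ccr3, Hoil1+/+ ΔIEC replicate 2, had the highest Il5ra level of the 12.

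Prg2 (ENSMUSG00000027073.5, chr2:84980461-84983632, plus strand) had 25.7, 9.04 and 41.3 CPM in Hoil1+/+ f/f, 19.5, 16.1 and 31.1 CPM in Hoil1+/+ ΔIEC, 32.1, 26.5 and 50.2 CPM in Hoil1-/- f/f and 29.9, 13.7 and 28.6 CPM in Hoil1-/- ΔIEC libraries. Prg2 did not follow Ccr3, for Hoil1-/- f/f replicate 3 had the highest Prg2 level and, at 0.599 CPM, the lowest Ccr3 level above 0. Its Pearson correlation across the 12 libraries was 0.65 (Spearman 0.64) with the immunoglobulin share of the counts and 0.13 (0.10) with Ccr3, both as descriptions. In the 2 libraries with the highest immunoglobulin share, 43.6% and 44.0%, Prg2 had its highest levels, 41.3 and 50.2 CPM. The next highest level, 32.1 CPM in Hoil1-/- f/f replicate 1, stood beside a share of 12.5%. Libraries with shares of 33.9% and 33.6% had 25.7 and 28.6 CPM. With the summed plasma cell genes the correlation of Prg2 was 0.42 (Spearman 0.27). No Hoil1 or Il4ra difference of Prg2 passed, the averaged ones being 0.17 ± 0.53 and -0.99 ± 0.54.

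**Figure D4:**
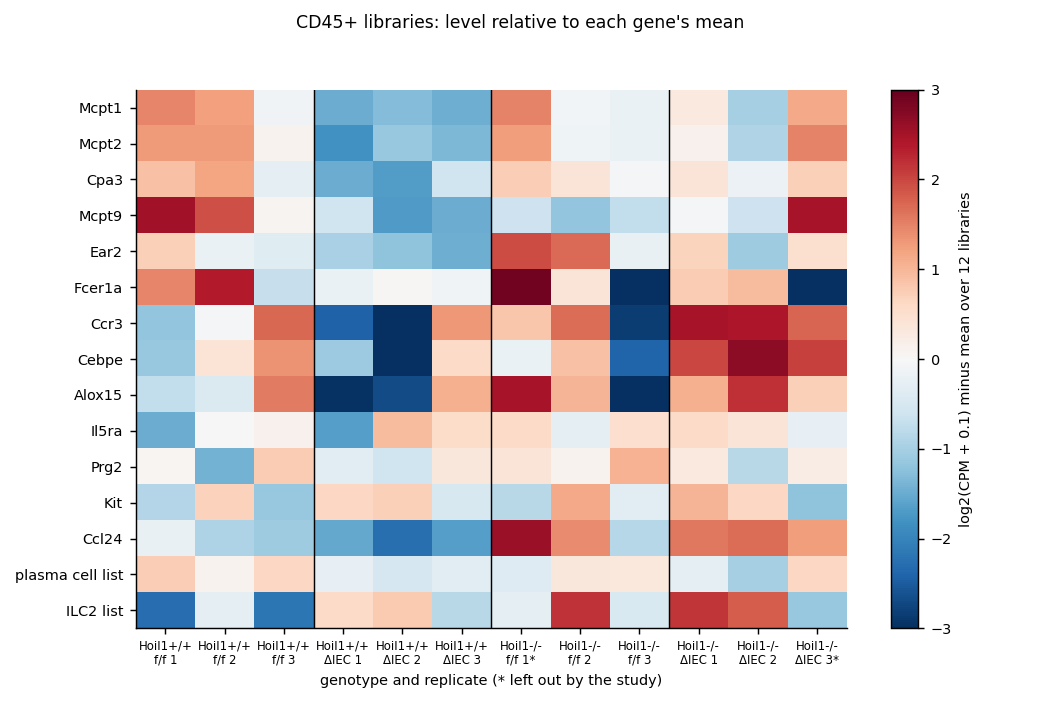
Level of 13 genes and 2 summed marker lists in the 12 CD45+ libraries, as log2(CPM + 0.1) minus the mean over the libraries, with colours ending at 3 in each direction and asterisks on the libraries the study left out. Mcpt1, Mcpt2 and Cpa3 rise and fall together, Ccr3 goes with Cebpe and Alox15, and Prg2 and Kit follow neither.

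Among all genes with a mean of at least 1 CPM, Mcpt2 (Pearson r = 0.985) and Cpa3 (0.898) were the 2 genes whose levels followed Mcpt1 most closely across the 12 CD45+ libraries, ahead of Idh1, Fkbp11 and Fcgr1 (0.864 to 0.854). For Ccr3 they were Retnlg (0.991), Cebpe (0.967), Slc13a3 (0.920), Serpinb2 (0.919) and Olr1 (0.906). Cebpe encodes a factor of granulocyte maturation. Genes picked as the most alike among 12791 reach high correlations by the choice itself, and the libraries share their composition, so these values are descriptions. Kit in CD45+ cells was followed by Spast, Fam102a, Pgm2l1, Cd2bp2 and Ipo9 (0.977 to 0.962) and Prg2 by the immunoglobulin gene Ighv1-80 (0.898), both searched after the data were seen.

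In CD45- cells, Kit and Ccl11 were the members with substantial counts. Kit had 48.8, 10.48 and 21.4 CPM in Hoil1+/+ f/f, 15.95, 11.5 and 25.1 CPM in Hoil1+/+ ΔIEC, 72.3, 66.6 and 41.2 CPM in Hoil1-/- f/f and 21.4, 10.1 and 21.1 CPM in Hoil1-/- ΔIEC libraries. The 3 Hoil1-/- f/f libraries, the last of them left out by the study, lay above all libraries of the 2 ΔIEC groups and overlapped with Hoil1+/+ f/f. The Hoil1 difference in f/f mice was 1.61 ± 0.58 (adjusted p = 0.354) and the Il4ra difference averaged over Hoil1 genotypes was -1.32 ± 0.40 (adjusted p = 0.719). The interaction was -1.78 ± 0.79 (adjusted p = 0.231), in a contrast where 0 genes were called and 3409 genes, 20.7%, had an unadjusted p below 0.05; DESeq2 called 8.91% of all genes and the likelihood ratio test 7.43%, with no member among them. In Hoil1-/- mice, a contrast added after the data were seen, the Il4ra difference was -2.21 ± 0.59 (adjusted p = 0.184), and 0.0425% of all genes were called. There Kit was lower in all 3 ΔIEC than in all 3 f/f libraries, and 3.24% of all genes met that rule.

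Of 3 members tested in CD45- cells none was called in any contrast. The quasi-likelihood test called 0.0365% of all genes for the Hoil1 effect in f/f mice, 0.00608% in ΔIEC mice and none for the averaged Il4ra effect, with 971 genes at an unadjusted p below 0.05. Averaged over Il4ra genotypes the Hoil1 contrast called 3 genes, 0.0182% of 16453, and these were Rbck1, Trpm5 and Lrmp, the latter pair being expressed by tuft cells. The summed level of 6 epithelial genes ranged from 3862 to 13850 CPM in Hoil1-/- f/f and from 1410 to 7602 CPM in Hoil1-/- ΔIEC libraries. It ranged from 2174 to 8201 CPM in Hoil1+/+ f/f and from 3546 to 11460 CPM in Hoil1+/+ ΔIEC libraries. Hoil1+/+ ΔIEC replicates 1 and 2 had 11460 and 10260 CPM of these genes with 15.95 and 11.5 CPM of Kit. Ptprc, a marker of blood-derived cells, had 10.7, 16.3 and 4.57 CPM in the 3 Hoil1-/- f/f libraries against at most 3.22 CPM in the other 9. Over the 12 libraries the correlation of Kit with the summed plasma cell genes was 0.67 (Spearman 0.56), with the 4 B cell genes 0.70 (0.61) and with the epithelial genes 0.55 (0.55). The part of these cells in the Kit result was not tested. Among the genes that followed Kit most closely in CD45- libraries, searched after the data were seen, were Slc7a4 (0.916), Mptx1 (0.895), Appl2 (0.878) and Atoh1 (0.872), of which Atoh1 encodes a factor of the secretory epithelial lineage. Siglecf, found on eosinophils and on tuft cells, had 41.2 and 71.0 CPM in the CD45- libraries of Hoil1-/- f/f replicates 1 and 2, 0 CPM in replicate 3 and at most 5.14 CPM in the other 9.

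Ccl11 (ENSMUSG00000020676.2, chr11:82057823-82062955, plus strand), which encodes eotaxin-1, had 7.60, 21.3 and 13.6 CPM in Hoil1+/+ f/f, 4.68, 0.495 and 16.5 CPM in Hoil1+/+ ΔIEC, 7.61, 7.93 and 17.1 CPM in Hoil1-/- f/f and 24.1, 17.6 and 22.6 CPM in Hoil1-/- ΔIEC CD45- libraries. The 3 Hoil1-/- ΔIEC libraries lay above all libraries of the Hoil1+/+ ΔIEC and Hoil1-/- f/f groups, as for 7.33% and 12.9% of all genes. They overlapped with the libraries of Hoil1+/+ f/f mice. The averaged Hoil1 difference was 0.44 ± 0.59 (adjusted p = 1.0) and that in ΔIEC mice 1.48 ± 0.80 (adjusted p = 0.645). The sum of 5 fibroblast genes (Pdgfra, Dcn, Col1a1, Col3a1 and Lum) ranged from 2220 to 8485 CPM in Hoil1-/- ΔIEC and from 537 to 2332 CPM in Hoil1+/+ ΔIEC libraries. It ranged from 329 to 6899 CPM in Hoil1-/- f/f and from 481 to 4676 CPM in Hoil1+/+ f/f libraries. The correlation of Ccl11 with this sum was 0.66 (Spearman 0.73). With the summed endothelial genes it was 0.66 (0.80) and with the summed epithelial genes -0.60 (-0.73), all as descriptions. The part of these cells in the Ccl11 levels was not tested. Ccnk (0.973), Pcolce2 (0.972), Prrg1 (0.963), Mmp19 (0.962) and Efemp1 (0.962) followed Ccl11 most closely over the 12 libraries. In CD45+ cells Ccl11 stayed at or below 3.90 CPM, with 3 libraries at 0.

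**Figure D5:**
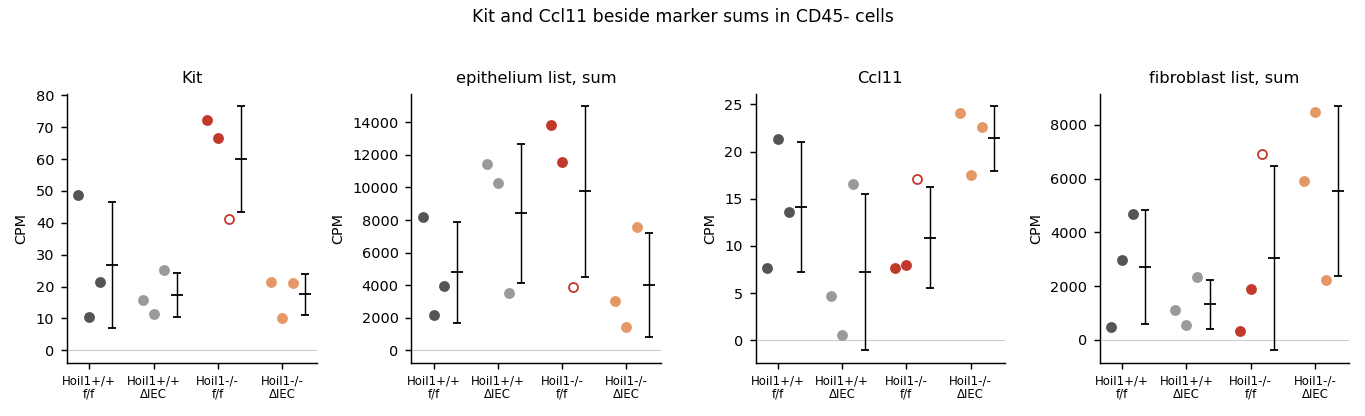
CPM of Kit and Ccl11 in CD45- libraries beside the summed CPM of the epithelial and fibroblast marker lists, 1 point per library, open where the study left the library out, with mean and SD of 3. The mean of Kit was highest in Hoil1-/- f/f and that of Ccl11 in Hoil1-/- ΔIEC libraries, and each of these groups overlapped with Hoil1+/+ f/f.

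The genes around the members in their pathways were read from lists. Of 15 further mast cell genes 12 were tested in CD45+ cells, none was called for the averaged Hoil1 or Il4ra effect, and the medians were 0.16 and -0.40 (all genes -0.05 and -0.01). Of these 12, Mcpt9 alone had an unadjusted p below 0.05 for the Il4ra effect (-1.58 ± 0.49, adjusted p = 0.349 in the quasi-likelihood test). Of all genes 10.6% met that rule. Mrgprb2, which marks mast cells of connective tissue, and Tpsab1 had no count in either fraction. Mcpt4, a chymase also known from connective tissue mast cells, had counts in 10 of 12 CD45+ libraries with at most 16.03 CPM. Tpsb2 reached at most 12.7 and Cma1 at most 3.62 CPM in CD45+ cells. No type of mast cell was inferred from the genes without counts. In CD45- cells, where the mean of the list was higher (10.1 against 6.35 CPM) and was carried by Hdc, Gata2 and Rab27b, 6 of 15 genes were tested and none was called for the Hoil1 effect. There Slc18a2 (adjusted p = 0.593), which had counts in 5 of 6 Hoil1+/+ and 0 of 6 Hoil1-/- libraries, Mitf (adjusted p = 0.927) and Gata2 (-0.57 ± 0.54) had the smallest unadjusted p. Mcpt4, Mcpt9, Cma1, Cma2 and Ms4a2, the last encoding the β chain of FcεRI, had no count in CD45- cells. Of 3 basophil genes Prss34 had no count and Mcpt8 (at most 7.15 CPM) and Cd200r3 (at most 0.312 CPM) were not called.

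Of 9 further eosinophil genes 7 were tested in CD45+ cells and none was called for the Hoil1 effect, with a median of 0.77. Those with the smallest unadjusted p were Ear2 (0.95 ± 0.44, adjusted p = 0.783), Clec4a4 (-0.86 ± 0.52) and Siglecf (0.77 ± 0.48). Ear2, a ribonuclease gene that macrophages also express, ran from 2.79 CPM in Hoil1+/+ ΔIEC replicate 3 to 31.0 CPM in Hoil1-/- f/f replicate 1, and its averaged Il4ra difference was -1.48 ± 0.46 (adjusted p = 0.352), the same sign as for the mast cell proteases.

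Ligands that act on these cells were read next. Of 14 growth factor and chemokine genes 11 were tested in CD45+ cells, none was called by the quasi-likelihood test, and 5 had an unadjusted p below 0.05, all higher in Hoil1-/- mice, against 3.11% of all genes higher by that rule. Ccl24, which encodes eotaxin-2 and signals through CCR3, had 6.96, 4.23 and 3.83 CPM in Hoil1+/+ f/f and 2.73, 1.63 and 2.53 CPM in Hoil1+/+ ΔIEC libraries. It had 49.7, 22.1 and 4.48 CPM in Hoil1-/- f/f and 24.7, 26.4 and 19.5 CPM in Hoil1-/- ΔIEC libraries. Of the 6 Hoil1-/- libraries 5 were thus above all Hoil1+/+ libraries. The averaged difference was 2.25 ± 0.39 (adjusted p = 0.274), and DESeq2 (adjusted p = 0.00016), the likelihood ratio test (8.92e-05) and the quasi-likelihood test without Hoil1-/- f/f replicate 3 (0.0495) called it; over all alternatives run its adjusted p ranged from 8.92e-05 to 0.979. Il5, the eosinophil growth factor, had counts in 1 of 6 Hoil1+/+ libraries (0.237 CPM) and in all 6 Hoil1-/- libraries (0.839 to 14.2 CPM, adjusted p = 0.378). Il13, an effector of type 2 responses, differed by 4.24 ± 0.96 (adjusted p = 0.516, ranging from 0.00743 to 1.0 over the alternatives run).

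All 9 receptor genes were tested in CD45+ cells, and the quasi-likelihood test called none for the Hoil1 effect. Il1rl1, the IL-33 receptor of mast cells and ILC2, had 2.60 to 8.98 CPM in Hoil1+/+ and 10.95 to 51.0 CPM in Hoil1-/- libraries, with no overlap, as in 0.0881% of all genes, and a difference of 2.17 ± 0.35 (adjusted p = 0.25). Il9r, for a mast cell growth factor, differed by 2.22 ± 0.36 (adjusted p = 0.25), with 0 CPM in the left-out Hoil1-/- f/f library. DESeq2 and the likelihood ratio test called both, among 0.740% and 0.605% of all genes; over all alternatives run their adjusted p ranged from 1.34e-05 to 0.795 for Il1rl1 and to 1.0 for Il9r. Il3ra, the third by p, differed by 0.32 ± 0.23. The summed ILC2 list, which also holds Il1rl1, ranged from 33.9 to 284 CPM in Hoil1+/+ and from 74.4 to 742 CPM in Hoil1-/- libraries, and its part in the levels of Il1rl1, Il9r, Il5 and Il13 was not tested.

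Of 11 genes that signal downstream of FcεRI and KIT, all were tested in CD45+ cells. For the averaged Hoil1 effect 0 of them had an unadjusted p below 0.05, against 5.85% of all genes. Their median was -0.06 against -0.05 for all genes. Those with the smallest p were Lat2 (-0.29 ± 0.16), Fcer1g (-0.24 ± 0.18), the common γ chain of Fc receptors, and Syk (0.22 ± 0.27), with adjusted p from 0.783 to 0.938. Kitl, which encodes stem cell factor, ranged from 45.1 to 182 CPM in CD45- cells, with an averaged Hoil1 difference of -0.05 ± 0.34.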

How the data were processed

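Per the labels and the study's methods, poly-A RNA from sorted ileal CD45+ and CD45- cells was made into libraries with strand selection. The authors used cutadapt to trim reads, STAR to align them to mm10 and featureCounts to count them per gene; versions and the options for strand and multi-mapping reads are not given in the sources used here. The deposited values are raw counts per gene, not normalized. IDs were matched to symbols without their version suffix (38872 of 39056), and coordinates are those of GENCODE M21 on GRCm38.

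CPM were counts divided by the library total. Differences were tested with the quasi-likelihood test of edgeR 4.0.16 (R 4.3.3) with TMM normalisation, within each fraction over 4 genotypes, on 21 libraries, after filterByExpr (min.count 10, min.total.count 15), with Benjamini-Hochberg adjustment over all genes tested and a threshold of 0.05. Alternatives were DESeq2 1.42.0, edgeR's likelihood ratio test, DESeq2-type size factors (RLE), no filter, all 24 libraries, removal of 422 immunoglobulin genes and leaving out each library in turn. Single genes were compared by an exact permutation test (scipy 1.17.1) on log2(CPM + 0.1), alternatively with 1 CPM. Scripts for tests across genes were tested on simulated data. Figures were drawn with matplotlib 3.10.9.

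The members and lists were chosen with earlier results of these data known. Named were all members, the 3 genes of each of 6 pathway lists with the smallest unadjusted p for the averaged Hoil1 effect in the fraction where the list is higher, and the 5 genes most like Mcpt1, Ccr3 and Ccl11; Mcpt9, Alox15, Kitl, Siglecf in CD45- cells and other list genes, the Il4ra effect within each Hoil1 genotype and the genes most like Kit and Prg2 were added after values were seen. Total counts and the floor of 3 counts cover counting error only. With 2 or 3 libraries a group in each fit, precision is limited mainly by the spread between libraries. Promoter windows were read from RefSeq (GRCm38.p6). A gene of a marker list and a gene found by likeness are not reported here. The sum of 4 B cell genes was added after values were seen.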

Additional observations from a re-analysis of the deposited data

Results flagged for a closer look

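In CD45- cells, where Mcpt1, Mcpt2 and Cpa3 had no counts otherwise, 2 libraries held some of Mcpt1 or Mcpt2. The library of Hoil1-/- f/f replicate 2 held 42 counts of Mcpt1 (1.39 CPM), far from the other Hoil1-/- libraries at 0. It also had the highest Ptprc level (16.3 CPM) and immunoglobulin share (1.66%) of the 12 CD45- libraries, and the part of CD45+ cells in these counts was not tested. The library of Hoil1-/- ΔIEC replicate 1 held 7 counts of Mcpt2 (0.399 CPM), with 2.33 CPM of Ptprc. Tpsb2, from the list of further mast cell genes, had counts in CD45- libraries of Hoil1+/+ mice. These were 43 counts (0.629 CPM) in ΔIEC replicate 3 and 2 counts (0.287 CPM) in f/f replicate 1.

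Among the 4 Hoil1-/- CD45+ libraries tested, Hoil1-/- f/f replicate 3 lay far below the other 3 on the log2(CPM + 0.1) scale for Ccr3 (0.599 CPM) and for Fcer1a (0 CPM, as in Hoil1-/- ΔIEC replicate 3, which was left out). Such gaps arise by chance in about 1 of 20 groups, and 31 groups of libraries were examined.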

How the results depend on the processing

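No paired analysis was run because the labels number no replicates: the numbers only name libraries in accession order. Ages recur between groups and fractions, but the labels do not say that libraries of the same age share a mouse or litter. Age was not fitted in any test. The causes of the changes below were not tested.

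In CD45+ cells the quasi-likelihood test called no member for any genotype contrast, whereas DESeq2 and the likelihood ratio test each called 3 members for the averaged Il4ra effect and DESeq2 called 2 for the interaction. Over all genes in CD45+ cells DESeq2 and the likelihood ratio test called 126 and 103 for the averaged Hoil1 effect, 93 and 66 for it in f/f mice, 159 and 51 in ΔIEC mice, 341 and 201 for the averaged Il4ra effect and 160 and 68 for the interaction. In CD45- cells they called 168 and 135, 613 and 350, 138 and 62, 159 and 143, and 1466 and 1223 for the same contrasts. With all libraries the quasi-likelihood counts for the averaged Hoil1 effect, f/f, ΔIEC and averaged Il4ra contrasts were 2, 1, 1 and 0 in CD45+ cells, and 0 for the Hoil1 contrasts in CD45- cells. Without immunoglobulin genes they were 6 and 2 (averaged Hoil1 effect and f/f, CD45+) and 11 (f/f, CD45-), without a filter 6, 3 and 11, with 1 for the CD45- interaction, and with RLE size factors 1 for the averaged Hoil1 effect in CD45- cells.

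Leaving out each library in turn gave 1 to 10 genes for the averaged Hoil1 effect, 0 to 7 for f/f (both highest without Hoil1-/- f/f replicate 3) and 0 to 8 for the averaged Il4ra effect (highest without Hoil1+/+ f/f replicate 3) in CD45+ cells. In CD45- cells it gave 1 to 173 for the averaged Hoil1 effect, 0 to 474 for f/f and 0 to 220 for the averaged Il4ra effect (highest without Hoil1-/- f/f replicate 2), and 0 to 2 for ΔIEC and 0 to 1199 for the interaction (highest without Hoil1+/+ ΔIEC replicate 3). No member was called in any of these genotype fits.

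The averaged Hoil1 difference in CD45+ cells turned its sign with all libraries for Mcpt1 (0.79), Mcpt2 (0.84), Fcer1a (0.15) and Fcer1g (0.24). Leaving out 1 library gave -0.46 to 0.25 for Mcpt1, -0.40 to 0.19 for Mcpt2, -4.87 to -0.21 for Fcer1a, -0.28 to 0.54 for Prg2, -0.61 to 2.74 for Ccr3 and -0.13 to 0.57 for Il5ra. The averaged Il4ra difference stayed between -2.04 and -1.33 for Mcpt1, -1.96 and -1.37 for Mcpt2 and -1.54 and -1.13 for Cpa3. In all, 709 of the other log2 fold changes kept direction and side of the threshold, and 17 passed it under an alternative.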

Other observations

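The genes that followed Mcpt1 after Mcpt2 and Cpa3 were not mast cell genes: Idh1 (Pearson r = 0.864), Fkbp11 (0.859) and Fcgr1 (0.854) over the 12 CD45+ libraries. Ear2 also went the same way (Spearman rho = 0.85). Alox15 varied 55.4-fold between CD45+ libraries, from 1.99 CPM in Hoil1-/- f/f replicate 3 to 110 CPM in Hoil1-/- f/f replicate 1 of the same group, the latter left out by the study.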
